A study of Mus musculus with 6 samples.

Results

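Day 1 after cardiotoxin injury was set against the uninjured state in wild-type mice, in the tibialis anterior at the front of the shin. The comparison rests on 4 of the 6 single-cell RNA libraries of the series, namely day 0 (uninjured) and day 1, each with 1 library collected 4 hours after lights on (zeitgeber time, ZT4) and another at ZT16. Barcodes were chosen by fixed limits (at least 500 UMIs, at least 200 genes and at most 10% mitochondrial UMIs), which kept 46372 of the 64032 barcodes that pass these limits in the whole series. A UMI is 1 counted transcript molecule. Day 0 gave 11758 and 12397 barcodes (ZT4 and ZT16, the order used for every pair of values here) and day 1 gave 10984 and 11233. Mononucleated cells of both hindlimbs were sorted with dead cells excluded by propidium iodide, so muscle fibres themselves, which are multinucleated, were not captured as cells. No allele was altered in any group. The series asks how a clock in muscle stem cells bears on immune cells during repair, and the comparison here asks what the first day of injury does to the tissue before any clock question. UMIs were summed over barcodes in each library and scaled to CPM, counts per 1000000 UMIs of that library. The sums were then taken apart into immune barcodes, with at least 1 UMI of Ptprc (CD45, the surface phosphatase of all leukocytes), and non-immune barcodes, with 0. The 2 libraries of a day differ in collection time, and nothing in the labels says that they are further replicates, so p-values measure only the spread between these libraries.

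Cardiotoxin is a snake venom protein that breaks open muscle fibres and leaves much of the basal lamina, blood vessels and satellite cells in place. Neutrophils enter within hours, drawn by chemokines that bind the receptor Cxcr2, and Ly6C-high monocytes follow through the ligands of Ccr2. Resident macrophages, fibro-adipogenic progenitors (the matrix-making stromal cells of muscle) and endothelium are known sources of such signals, and satellite cells leave quiescence over the first days and divide later.

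The kept barcodes held 73760802 and 79310169 UMIs on day 0 and 72324112 and 96275661 on day 1, with medians of 5214.5, 4976, 3905 and 5879 UMIs per barcode. On day 0, 10.8% and 11.7% of deposited barcodes lay over the mitochondrial limit, against 2.10% and 2.05% on day 1. Between any 2 of the 4 libraries, 33 to 65 barcode sequences were shared, at most 0.566% of the smaller library. The non-immune fraction of day 1 carried leukocyte RNA. At least 3 of 10 pan-leukocyte genes were found in 3.79% and 1.85% of Ptprc-negative barcodes on day 0, but in 57.7% and 43.0% on day 1. Many results on non-immune barcodes are therefore given beside a second split, called the panel split here. It takes as non-immune the barcodes with at most 1 of those 10 genes (9797 and 11141 on day 0, 725 and 1275 on day 1). Where a Ptprc-negative value stands alone, the part of leukocyte RNA in it was not tested. Muscle fibre RNA was widespread on day 0. At least 3 of 10 mature muscle genes, such as Acta1 and Ckm, were found in 97.4% and 98.7% of all barcodes on day 0 and in 97.1% and 97.9% of immune ones, against 4.62% and 7.65%, and 1.74% and 3.39%, on day 1. Thinned to 1000 UMIs per barcode, those shares were 51.9% and 60.5% of all and 35.6% and 34.3% of immune barcodes on day 0, and 2.55% and 3.86%, and 0.81% and 1.395%, on day 1. The part of this free or carried-over RNA in the results below was not tested beyond the values given.

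One day after injury the tissue was mostly leukocytes by barcode. Ptprc was detected in 12.4% (exact binomial 95% interval 11.78 to 12.98) and 7.91% (7.444 to 8.402) of barcodes on day 0 and in 83.4% (82.6 to 84.0) and 78.7% (77.9 to 79.5) on day 1, both day 1 libraries far above both of day 0. These intervals cover counting error only. With each barcode thinned to 1000 UMIs the shares were 4.78% and 2.75% on day 0 and 48.5% and 38.7% on day 1, in the same order. Immune barcodes held 17.6% and 12.5% of the UMIs on day 0 and 87.4% and 84.3% on day 1. As background for the share, Ptprc had a UMI in 2.69% and 1.49% of barcodes bearing the endothelial panel on day 0, and in 20.3% and 15.5% on day 1, at medians of 3022.5, 3427.5, 4786 and 5208 UMIs. With 2 libraries a day, no two-sided exact permutation test of a share can pass 0.05, so shares are given without a test.

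Barcodes with at least 3 of the genes of a marker panel were then counted, a count that depends on depth. The neutrophil panel (S100a8, Csf3r, Cxcr2 and others) was borne by 0.221% and 0.0887% of barcodes on day 0 and by 59.9% and 51.2% on day 1. The monocyte-macrophage panel went from 12.4% and 8.32% to 47.6% and 49.7%, so on day 1 many barcodes bore both. Every tissue panel was lower on day 1. Fibro-adipogenic genes marked 47.3% and 39.7% of barcodes on day 0 against 1.39% and 2.48% on day 1, and endothelial genes 28.5% and 32.0% against 2.79% and 5.01%. Myogenic genes marked 9.82% and 11.3% on day 0 and 0.29% and 0.50% on day 1, while lymphoid genes marked 2.03% and 0.56%, and 1.08% and 1.04%, with overlap. A lower share in such a capture cannot tell apart fewer cells of a type from the same number among many more leukocytes, nor fewer cells from less RNA per cell.

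**Figure D1:**
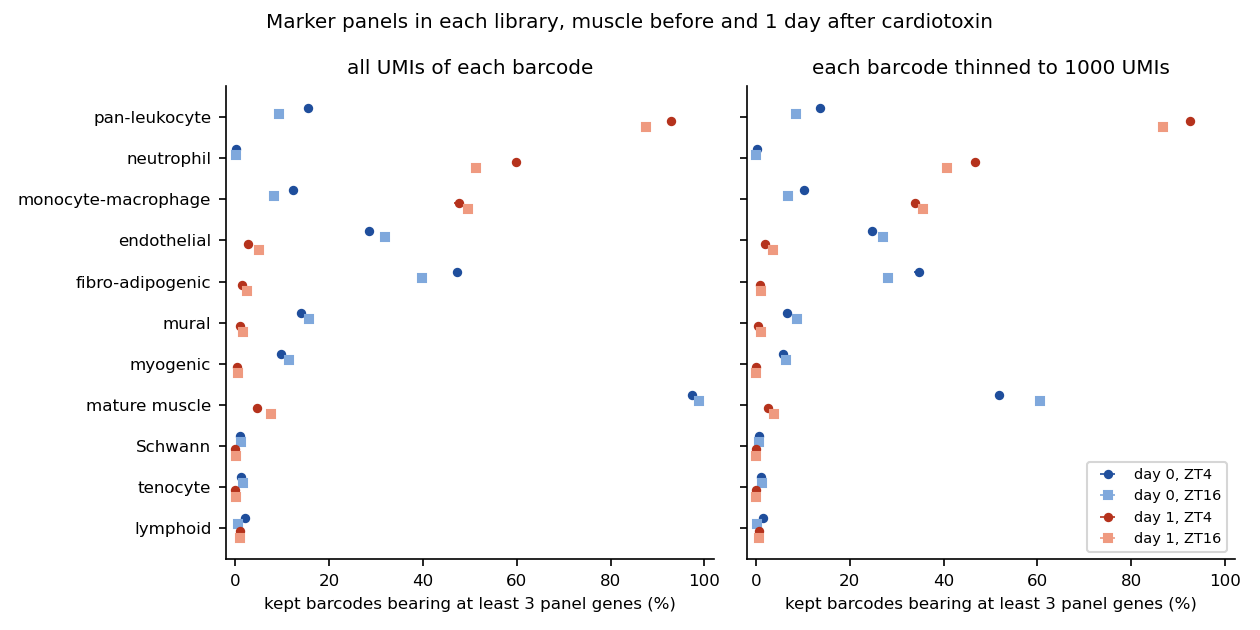
Share of kept barcodes that bear at least 3 genes of each of 11 marker panels (percent, x axis), counted on all UMIs (left) and with each barcode thinned to 1000 UMIs (right). Each point is 1 library, blue for day 0 and red for day 1, circles for ZT4 and squares for ZT16, with exact binomial 95% intervals that are mostly hidden by the points. On all UMIs the neutrophil panel lies at 0.221% and 0.0887% on day 0 and at 59.9% and 51.2% on day 1 (46.7% and 40.6% thinned). The fibro-adipogenic panel goes from 47.3% and 39.7% to 1.39% and 2.48% on all UMIs.

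Over all barcodes, 2025 of 16991 tested genes were higher on day 1 (11.9%) and 6729 were lower (39.6%), calling a gene at an adjusted p under 0.05 in edgeR's quasi-likelihood test with Benjamini-Hochberg adjustment and at least 2-fold. The called genes were thus 23.1% higher and the rest lower. Scaling by library totals alone puts the median gene at -0.57 on the log2 scale, and TMM scaling, which moves that median up by 0.47, made the split 37.4% higher, while DESeq2 gave 41.0%. By the library order, day 1 lay above day 0 without overlap for 4573 genes and below it for 9954, and 1 called gene overlapped. No called gene rose at one collection time and fell at the other. The greatest rises among genes of at least 100 CPM were those of Cxcl3, Acod1, Chil3, Spp1, Clec4e, Clec4d, Trem1, Arg1, Cd300lf and S100a8, genes of neutrophils and inflammatory macrophages. Acod1, which makes itaconate in activated myeloid cells, gave 0.203 and 0.0504 CPM on day 0 and 218 and 64.5 CPM on day 1. Both day 1 libraries stood far over both of day 0, with ZT4 the higher, and the log2 difference was 10.13. The greatest falls were those of Nppc, Retnla, Inmt, Clec3b, Chodl, Pcsk6, Scara5, Hmcn2, Islr and Myoc, most of them stromal genes.

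Neutrophil genes rose. Of 21 tested genes of neutrophil identity and granules, 20 were higher over all barcodes and 0 lower, against 11.9% and 39.6% of all genes. The median log2 difference was 6.38. S100a8, a subunit of calprotectin that neutrophils hold in their cytosol, gave 31.9 and 18.5 CPM on day 0 and 6252 and 3369 CPM on day 1. Its partner S100a9 gave 44.9 and 25.2 CPM on day 0 and 5734 and 3720 CPM on day 1. The days did not overlap for either, ZT4 was the higher library on both days, and the log2 differences were 7.58 ± 0.47 (SE, adjusted p = 4.44e-05) and 7.08 ± 0.41 (adjusted p = 3.55e-05). Csf3r, the receptor for G-CSF, gave 3.77 and 2.36 CPM on day 0 and 251 and 205 CPM on day 1, and its log2 difference was 6.22. Cxcr2, the receptor that reads the neutrophil-attracting CXC chemokines, gave 1.65 and 0.996 CPM on day 0 and 239.6 and 215 CPM on day 1, a log2 difference of 7.42. Mmp8, stored in secondary granules, gave 2.31 and 1.11 CPM on day 0 and 44.2 and 30.8 CPM on day 1 in immune barcodes, and Retnlg, a resistin-like protein of mature neutrophils, gave 21.6 and 12.1 CPM on day 0 and 90.3 and 43.9 CPM on day 1 there, log2 differences of 4.41 and 1.98. Both were higher on day 1 without overlap.

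Among immune barcodes alone, 954 of 14916 genes were higher (6.4%) and 4995 lower (33.5%), and 20 of 20 tested neutrophil genes were higher. Of the called genes 16.04% were higher, against 33.9% under TMM scaling (which moves the median gene up by 0.46) and 37.6% with DESeq2. S100a8 there gave 157 and 146 CPM on day 0 and 6624 and 3687 CPM on day 1, a log2 difference of 5.09 ± 0.31 (adjusted p = 4.65e-05). With putative doublets left out, the S100a8 and S100a9 differences were 5.82 and 5.30 and no longer passed the test. The neutrophil panel was borne by 1.65% and 1.12% of immune barcodes on day 0 and by 65.2% and 59.2% on day 1, while the share with the monocyte-macrophage panel was lower, from 79.4% and 86.4% to 52.8% and 57.4%. The immune fraction therefore bore these panels in different shares on the 2 days. The part of this change of mixture in its day differences was not tested. Of Ptprc-negative barcodes on day 1, 33.8% and 21.5% bore the neutrophil panel too, against 0.02% and 0% on day 0, and 20 of 21 neutrophil genes were higher in that fraction. The part of these barcodes in that count was not tested. In the panel split, 8 of 13 were higher and 1 lower. The shares of all genes higher were 12.7% by the Ptprc split and 8.36% in the panel split.

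Genes of arriving monocytes and macrophages rose beside those of neutrophils. Of 22 such genes, 19 were higher over all barcodes and 0 lower (median 3.44), and 13 were higher and 1 lower among immune barcodes. The shares of all genes higher were 11.9% and 6.4% in the same order. Spp1, osteopontin, gave 8.23 and 11.7 CPM on day 0 and 1963 and 2504 CPM on day 1 in immune barcodes, a rise of 7.82 ± 0.25 on the log2 scale (adjusted p = 1.05e-06). Arg1, the arginase of repair-type and hypoxic macrophages, gave 11.2 and 10.8 CPM on day 0 and 739 and 579.8 CPM on day 1. Chil3, a chitinase-like protein of monocytes and alternatively activated macrophages, gave 6.31 and 3.03 CPM on day 0 and 513 and 488 CPM on day 1. In each of these genes the day 1 libraries lay close together and far above those of day 0, with log2 differences of 5.90 for Arg1 and 6.71 for Chil3. Thbs1, the matricellular thrombospondin, gave 15.2 and 29.1 CPM on day 0 and 2158 and 1472 CPM on day 1, a log2 difference of 6.36. Ccr2, the receptor that brings Ly6C-high monocytes out of the marrow, was higher over all barcodes (102.1 and 65.9 CPM on day 0 and 624 and 554 CPM on day 1) but not among immune ones (545 and 506 CPM on day 0 and 682 and 618 CPM on day 1, adjusted p = 0.0682). Ly6c2 in immune barcodes gave 37.9 and 4.84 CPM on day 0 and 217 and 101 CPM on day 1, and the day 0 library at ZT4 stood far over that at ZT16. Its difference of 2.87 did not pass the test (adjusted p = 0.0938).

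The panels also divide the day 1 immune barcodes, a division made after the values were seen and given without a test. Barcodes bearing the neutrophil panel alone numbered 4110 and 3596, and those bearing the monocyte-macrophage panel alone 2980 and 3432. Their median depths were 2381 and 2494.5 UMIs against 10161 and 13562. Both panels were borne by 1856 and 1642 immune barcodes of day 1, at medians of 9792 and 12999.5 UMIs, and neither by 210 and 170. Where neutrophil-bearing barcodes are set beside monocyte-macrophage ones here and below, each bears 1 of these panels alone. Barcodes bearing both are left out there, and their levels are not given. On day 0 only 17 and 9 immune barcodes bore the neutrophil panel alone, too few to compare. Arg1 was at 3.14 and 4.83 CPM in the neutrophil-bearing barcodes of day 1 and at 963 and 682 CPM in the monocyte-macrophage ones. Fn1, fibronectin, was at 21.1 and 40.4 CPM and 2222 and 1982 CPM in the same order. Acod1 ran the other way, at 1066 and 441 CPM with the neutrophil panel and 6.79 and 1.91 CPM with the monocyte-macrophage panel. In the monocyte-macrophage barcodes themselves, Arg1 went from 0.621 and 0 CPM on day 0 to the values just given. Retnla went from 9638 and 6872 CPM to 4.22 and 3.40 CPM there. That panel holds C1qa and Mrc1 as well as Ccr2 and Ly6c2. The part of a change of mixture within this class was not tested.

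Resident macrophage genes fell. Among immune barcodes 18 of 20 were lower and 0 higher, against 33.5% and 6.4% of all genes, with a median of -3.44. Retnla, a resistin-like protein of tissue macrophages, gave 8419 and 6213 CPM on day 0 and 2.55 and 2.11 CPM on day 1, and its difference of -11.62 ± 0.26 was the largest fall among immune genes of at least 100 CPM (adjusted p = 1.05e-06). Timd4, a phosphatidylserine receptor of embryonically seeded macrophages, gave 72.4 and 78.3 CPM on day 0 and 0.823 and 0.345 CPM on day 1, a difference of -7.04. Cd163, the haemoglobin scavenger receptor, gave 341 and 521 CPM on day 0 and 10.4 and 17.97 CPM on day 1, and Folr2, a folate receptor of perivascular macrophages, gave 584 and 586 CPM on day 0 and 34.2 and 59.0 CPM on day 1. None of these genes overlapped between the days. The complement subunit C1qa gave 2429 and 3007 CPM on day 0 and 343 and 551 CPM on day 1, a smaller fall of -2.60. Mrc1, the mannose receptor CD206, gave 1079 and 1015 CPM on day 0 and 456 and 455 CPM on day 1, and its difference of -1.201 was -0.74 under TMM scaling, no longer 2-fold.

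Antigen presentation genes were also lower among immune barcodes. Of 19 genes of dendritic cells and MHC class II, 15 were lower and 1 was higher, against 33.5% and 6.4% of all genes. Cd74, the invariant chain that guides MHC class II, gave 16950 and 15590 CPM on day 0 and 1936 and 2076 CPM on day 1 in immune barcodes, a difference of -3.02 ± 0.12 (adjusted p = 1.3e-06). Over all barcodes the same gene gave 3349 and 2093 CPM on day 0 and 1791 and 1881 CPM on day 1, a difference of -0.57 that did not pass the test (adjusted p = 0.0671). H2-Ab1, a class II chain, gave 5672 and 5312 CPM on day 0 and 672 and 739 CPM on day 1 in immune barcodes, in step with Cd74. In barcodes bearing the monocyte-macrophage panel alone, Cd74 went from 18710 and 16910 CPM to 2854 and 2581 CPM. The costimulator Cd80 was the exception in the list, with 12.5 and 17.8 CPM on day 0 and 50.6 and 41.9 CPM on day 1 and a difference of 1.62.

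Lymphoid and mast cell genes were lower among immune barcodes, where 33.5% of all genes were. Called lower were 14 of 16 genes of T and NK cells, 9 of 10 of B cells and 10 of 10 of mast cells. Cd3e, a chain of the T cell receptor complex, gave 14.4 and 6.96 CPM on day 0 and 1.16 and 1.18 CPM on day 1, and Cpa3, a mast cell protease, gave 119 and 97.8 CPM on day 0 and 3.43 and 8.42 CPM on day 1, both without overlap. With putative doublets left out the Cpa3 difference was -2.02 and not called. The day 0 library at ZT4 held more lymphoid RNA than that at ZT16. Counts for T and NK cells ranged from 7 to 15 with 1 library left out, 7 without either day 1 library, and those for B cells from 2, without either day 1 library, to 10. Over all barcodes, where 39.6% of all genes were lower, only 1 of 16 T and NK genes and 1 of 10 B cell genes was. Those counts were 7 and 8 without day 0 at ZT16, and 4 T and NK genes were higher there without day 0 at ZT4. Mast cell genes were lower there too (6 of 10).

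The neutrophil-attracting CXC chemokines Cxcl1, Cxcl2 and Cxcl3 share a gene cluster and a motif in their promoters. These promoters are shown because the near neighbours did not change alike over all barcodes. The 300 bases from 250 before to 50 after the start of each gene are from RefSeq (GRCm38.p6, all on the + strand), Cxcl1 at chr5:90890995-90891294, Cxcl2 at chr5:90903649-90903948 and Cxcl3 at chr5:90785851-90786150. Capitals mark stretches that match GGG, then any 3 bases, then TTCC, on either strand, with overlapping matches run together.
Cxcl1: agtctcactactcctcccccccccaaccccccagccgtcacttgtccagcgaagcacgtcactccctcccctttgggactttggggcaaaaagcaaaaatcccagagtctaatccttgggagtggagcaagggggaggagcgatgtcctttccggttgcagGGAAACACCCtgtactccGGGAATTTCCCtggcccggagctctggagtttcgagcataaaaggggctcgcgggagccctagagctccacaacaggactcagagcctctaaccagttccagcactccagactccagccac
Cxcl2: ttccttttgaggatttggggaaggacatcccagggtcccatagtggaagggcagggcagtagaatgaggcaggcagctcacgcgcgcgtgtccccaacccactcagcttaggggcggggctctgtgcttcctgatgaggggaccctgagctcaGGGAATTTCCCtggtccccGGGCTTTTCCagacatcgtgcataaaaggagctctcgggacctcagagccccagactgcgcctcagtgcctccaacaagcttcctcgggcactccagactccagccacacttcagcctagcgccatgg
Cxcl3: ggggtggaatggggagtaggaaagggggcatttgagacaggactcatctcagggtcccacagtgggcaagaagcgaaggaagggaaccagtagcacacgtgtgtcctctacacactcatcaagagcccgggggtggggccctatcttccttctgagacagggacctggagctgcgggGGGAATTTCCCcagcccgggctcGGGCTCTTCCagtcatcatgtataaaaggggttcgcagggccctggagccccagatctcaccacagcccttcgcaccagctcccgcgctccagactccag
Each of the 3 promoters held 3 matches in 2 stretches upstream of the start. This is the general shape of a kappa-B site, the element that NF-kB proteins bind. Of 32851 promoters of this length in the table, 1825 (5.6%) held a match. A match is only a description of the letters. Cxcl5 has no entry in the table.

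Levels of the 3 genes went apart. Over all barcodes Cxcl2 gave 174 and 159 CPM on day 0 and 5040 and 3379 CPM on day 1, a difference of 4.66 ± 0.24 on the log2 scale (adjusted p = 2.55e-05). Cxcl3 was almost absent on day 0 and gave 0.0271 and 0.0630 CPM on day 0 and 188 and 153 CPM on day 1, a difference of 11.82. Cxcl5 gave 0.163 and 0.530 CPM on day 0 and 84.2 and 83.8 CPM on day 1, a difference of 7.90. In all 3 the days were far apart. Cxcl1 did not follow them, with 249 and 209 CPM on day 0 and 129 and 189 CPM on day 1 and a difference of -0.53 that was not called (adjusted p = 0.0731; 0.02 with DESeq2). Immune barcodes held 4.62% of Cxcl1 UMIs on day 0 and 61.0% on day 1. Within fractions Cxcl1 gave 61.6 and 82.2 CPM on day 0 and 98.8 and 129.8 CPM on day 1 in immune barcodes and 289 and 228 CPM on day 0 and 338 and 506 CPM on day 1 in Ptprc-negative ones, both short of a 2-fold call. In the panel split the non-immune values were 296 and 231 CPM on day 0 and 637 and 791 CPM on day 1, and there the rise of 1.44 was called (adjusted p = 0.00183).

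The fractions divided the family. On day 1, Cxcl2 was at 13860 and 8190 CPM in immune barcodes bearing the neutrophil panel alone and at 2855 and 2768 CPM in those bearing the monocyte-macrophage panel alone. Cxcl3 was at 162 and 58.7 CPM and 188 and 171 CPM in the same order. Cxcl5 had 0 UMIs in immune barcodes on day 0 and 33.9 and 21.2 CPM there on day 1, at least 204-fold higher against a floor of 3 UMIs over the group, but its larger level lay in Ptprc-negative barcodes, with 0.198 and 0.605 CPM on day 0 and 432 and 421 CPM on day 1 (0.206 and 0.619 CPM on day 0 and 899.5 and 619 CPM on day 1 in the panel split; difference 10.80, adjusted p = 0.000336). Barcodes bearing the fibro-adipogenic panel alone and at most 1 pan-leukocyte gene, 3056 and 2559 on day 0 but only 72 and 118 on day 1, gave Cxcl5 at 0.227 and 0.905 CPM on day 0 and 2449 and 1656 CPM on day 1. The matching endothelial barcodes, 2596 and 3147 on day 0 and 215 and 423 on day 1, held 0 Cxcl5 UMIs in all but 1 library, which held 1. Cxcl1 in the fibro-adipogenic barcodes gave 369 and 339.8 CPM on day 0 and 1508 and 2018 CPM on day 1, both day 1 libraries above both of day 0. Of the day 1 levels given here, those of Cxcl5 and Cxcl1 were highest in the fibro-adipogenic class and that of Cxcl2 in the neutrophil one. Not every panel class is given for each gene, and the mural and myogenic classes are left out.

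Of 15 CXC chemokines and receptors, 7 were higher and 4 lower over all barcodes (median 0.91), against 11.9% and 39.6% of all genes. The homeostatic ligands were among those that fell. Cxcl12, which holds leukocytes through Cxcr4, gave 423 and 405 CPM on day 0 and 52.0 and 56.1 CPM on day 1, a difference of -2.94. In Ptprc-negative barcodes it gave 496 and 453 CPM on day 0 and 314 and 302 CPM on day 1, which was not called, and the panel split turned the difference from -0.62 to 0.41, not called either. Endothelial barcodes with at most 1 pan-leukocyte gene held Cxcl12 at 1731 and 1416 CPM on day 0. On day 1 they held it at 1848 and 1340 CPM, with overlapping days. Cxcl14 gave 1195 and 1202 CPM on day 0 and 84.5 and 98.0 CPM on day 1, a difference of -3.72. Cxcr4, the receptor for Cxcl12, rose by 1.94 among immune barcodes, from 57.8 and 63.0 CPM to 184 and 279.9 CPM.

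**Figure D2:**
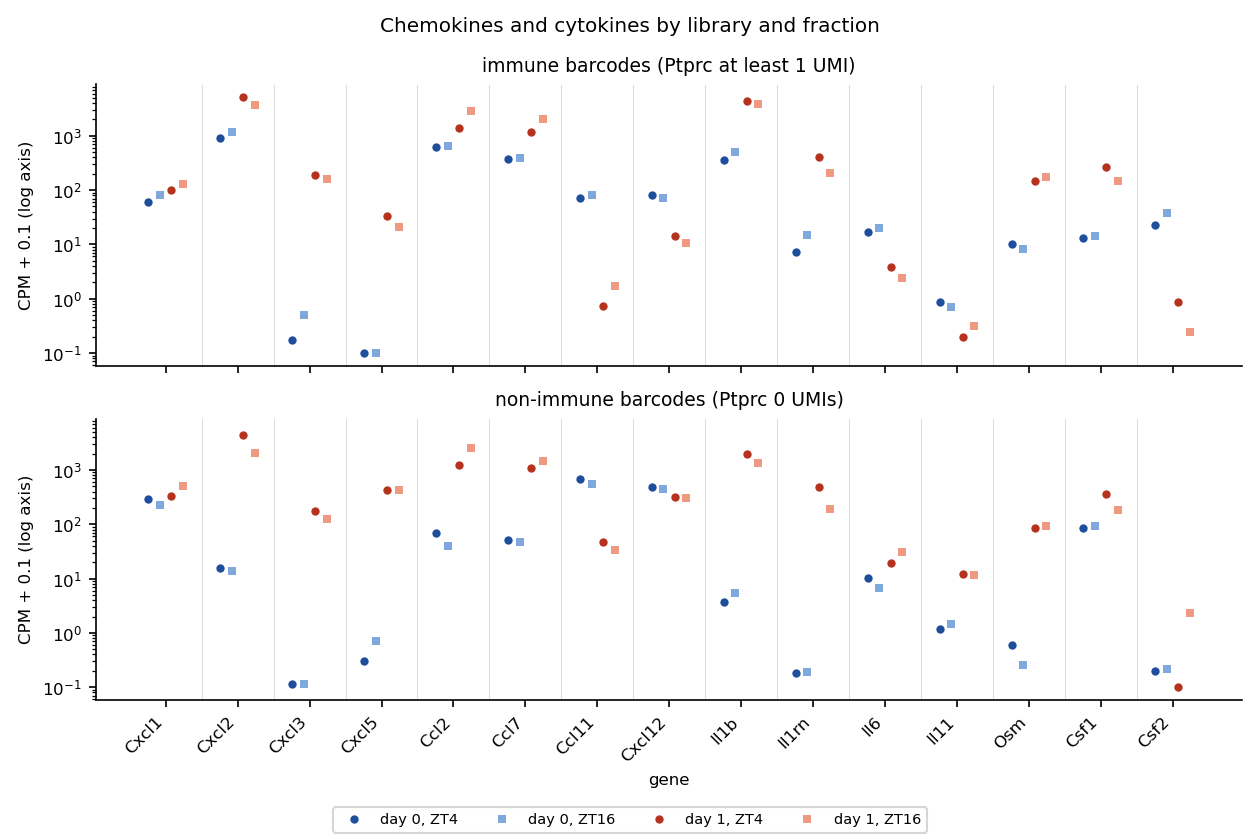
Levels of 15 chemokine and cytokine genes in each library (CPM + 0.1, log axis) among immune barcodes (top) and Ptprc-negative barcodes (bottom), blue for day 0, red for day 1, circles for ZT4 and squares for ZT16. Il6 lies at 16.8 and 20.1 CPM on day 0 above 3.798 and 2.30 CPM on day 1 among immune barcodes, and at 10.3 and 6.74 CPM below 19.2 and 31.0 CPM among Ptprc-negative ones.

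Of 18 CC chemokines and receptors, 12 were higher and 2 lower over all barcodes (median 3.13), against 11.9% and 39.6% of all genes. Among immune barcodes 9 were higher and 5 lower, against 6.4% and 33.5% of all genes. Thinning to 500 UMIs made these counts 6 and 7. Ccl2, the main ligand of Ccr2, gave 168 and 117 CPM on day 0 and 1369 and 2861 CPM on day 1, a difference of 3.89 ± 0.40 (adjusted p = 0.000286). Ccl7, a second Ccr2 ligand, gave 107 and 90.4 CPM on day 0 and 1154 and 1980 CPM on day 1. Day 1 at ZT16 was the highest library for both, and the days did not overlap. Ccl2 rose by 1.74 among immune barcodes and by 5.12 among Ptprc-negative ones (5.23 in the panel split). With each barcode thinned to 500 UMIs, so that shallow and deep ones weigh alike, the immune rise was 0.98 and not called. Fibro-adipogenic barcodes with at most 1 pan-leukocyte gene held Ccl2 at 80.4 and 34.7 CPM on day 0. On day 1 they held it at 2159 and 5134 CPM. The endothelial ones gave 4.66 and 3.55 CPM on day 0 and 81.0 and 63.8 CPM on day 1. Ccl3, a ligand of Ccr1, was at 2301 and 2649 CPM on day 1 in neutrophil-bearing immune barcodes and 102.1 and 152 CPM in monocyte-macrophage ones. Ccr1 itself rose by 5.24 over all barcodes, with 13.8 and 7.89 CPM on day 0 and 418 and 400.5 CPM on day 1.

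Ccl11, eotaxin-1, which draws eosinophils, was 1 of the 2 that fell. It gave 584 and 493 CPM on day 0 and 6.58 and 6.58 CPM on day 1, a difference of -6.36 ± 0.20 (adjusted p = 1.76e-05). Within fibro-adipogenic barcodes with at most 1 pan-leukocyte gene Ccl11 was lower on day 1 as well. It gave 1193 and 1175 CPM on day 0 and 212 and 159 CPM on day 1. Day 0 stood over day 1 there in both pairs of libraries, and the panel split as a whole gave -3.06.

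Interleukin-1 and its partners rose. Of 22 genes of the interleukin-1, interleukin-6 and TNF families, 9 were higher and 5 lower over all barcodes. Of all genes 11.9% were higher and 39.6% lower there. Il1b gave 66.8 and 66.8 CPM on day 0 and 4021 and 3492 CPM on day 1, a difference of 5.81 ± 0.17 (adjusted p = 1.76e-05), and within immune barcodes 362 and 497 CPM on day 0 and 4322 and 3895 CPM on day 1, a difference of 3.26. On day 1 it was at 14750 and 18360 CPM in neutrophil-bearing immune barcodes and 1585 and 1308 CPM in monocyte-macrophage ones. The receptor antagonist Il1rn rose as well, with 7.16 and 15.1 CPM on day 0 and 409 and 205 CPM on day 1 in immune barcodes, a difference of 4.81. Without the day 1 library at ZT4, the higher one, Il1rn gave 4.23 and was not called, nor was it with collection time as a replicate block (4.77). The decoy receptor Il1r2 gave 5.46 and 6.25 CPM on day 0 and 273 and 169.6 CPM on day 1, a difference of 5.24. Tnf was higher over all barcodes, with 30.6 and 19.2 CPM on day 0 and 203 and 149 CPM on day 1, but not among immune ones, with 131 and 117 CPM on day 0 and 206 and 160.5 CPM on day 1. Osm, oncostatin M, an interleukin-6 type cytokine of myeloid cells, gave 10.1 and 8.27 CPM on day 0 and 147 and 178 CPM on day 1 in immune barcodes, a difference of 4.14.

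Il6 behaved unlike Il1b. Over all barcodes it gave 11.5 and 8.41 CPM on day 0 and 5.74 and 6.79 CPM on day 1, a difference of -0.66 that was not called. Among immune barcodes it fell, with 16.8 and 20.1 CPM on day 0 and 3.798 and 2.30 CPM on day 1, by -2.60 (adjusted p = 0.000137). Among Ptprc-negative barcodes it rose, with 10.3 and 6.74 CPM on day 0 and 19.2 and 31.0 CPM on day 1, by 1.56 (adjusted p = 0.00669), which was 1.17 without the day 1 library at ZT16 and 1.47 after thinning to 500 UMIs, neither of them called. In the panel split the rise was 2.36 (adjusted p = 0.00144). Fibro-adipogenic barcodes with at most 1 pan-leukocyte gene gave 16.8 and 11.1 CPM on day 0 and 51.4 and 71.6 CPM on day 1. Endothelial ones gave 1.46 and 1.34 CPM on day 0 and 11.6 and 38.0 CPM on day 1. Both day 1 libraries were on top in each. Il11, another ligand that signals through gp130, gave 1.10 and 1.35 CPM on day 0 and 12.2 and 11.3 CPM on day 1 in Ptprc-negative barcodes, a difference of 3.25, and in fibro-adipogenic ones 1.48 and 1.93 CPM on day 0 and 55.3 and 44.96 CPM on day 1.

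Il1rl1, the receptor for interleukin-33 and known from mast cells and regulatory T cells, rose in Ptprc-negative barcodes, with 1.88 and 1.196 CPM on day 0 and 29.8 and 30.8 CPM on day 1, by 4.30 (adjusted p = 0.000118; 1.39 and not called after thinning to 500 UMIs). It fell among immune barcodes, where it gave 60.5 and 44.6 CPM on day 0 and 4.57 and 3.45 CPM on day 1. The panel split gave 0.258 and 0.0295 CPM on day 0 and 73.7 and 53.7 CPM on day 1 for non-immune barcodes. Those bearing the fibro-adipogenic panel alone held it at 0.454 and 0 CPM on day 0 and 189 and 154 CPM on day 1, whereas endothelial ones held at most 3 UMIs in any library. Of 10 mast cell genes in Ptprc-negative barcodes, 2 were higher and 3 lower, against 12.7% and 25.9% of all genes. In the panel split 1 and 0 of 3 tested were.

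Of 10 colony-stimulating factors and receptors, 5 were higher and 3 lower over all barcodes, against 11.9% and 39.6% of all genes. Csf1, the growth factor of macrophages, rose among immune barcodes, with 13.3 and 14.4 CPM on day 0 and 266 and 149.8 CPM on day 1, by 3.91 ± 0.30 (adjusted p = 4.66e-05). On day 1 it was at 1283 and 958 CPM in neutrophil-bearing immune barcodes against 5.27 and 4.06 CPM in monocyte-macrophage ones. Fibro-adipogenic barcodes carried it as well, at 152 and 199.9 CPM on day 0 and 521 and 399 CPM on day 1. Its receptor Csf1r fell among immune barcodes, with 813 and 831 CPM on day 0 and 258 and 267 CPM on day 1, by -1.65. Csf2, GM-CSF, gave 23.1 and 38.5 CPM on day 0 and 0.760 and 0.148 CPM on day 1, a fall of -6.14 that was not called with collection time as a replicate block (-6.17, adjusted p = 0.127). Over all barcodes Csf3, G-CSF, stayed low at 0.163 and 0.0883 CPM on day 0 and 4.36 and 2.91 CPM on day 1, although its rise of 4.85 was called.

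Stromal genes fell over all barcodes. All 18 tested fibro-adipogenic genes and 26 of 28 genes of collagens and matrix were lower, against 39.6% of all genes. In each list 0 were higher and the median was -5.15. Col1a1 gave 2747 and 3150 CPM on day 0 and 46.4 and 40.2 CPM on day 1, a difference of -6.09 ± 0.19 (adjusted p = 1.76e-05). Dcn, decorin, gave 10100 and 7905 CPM on day 0 and 134 and 109 CPM on day 1. Pdgfra, the receptor that defines fibro-adipogenic progenitors, gave 268 and 241 CPM on day 0 and 11.4 and 9.12 CPM on day 1, a difference of -4.63. The share of barcodes with the fibro-adipogenic panel was lower beside them, as given above. Among Ptprc-negative barcodes alone, 2008 of 15857 genes were higher (12.7%) and 4102 lower (25.9%), and in the panel split 1262 of 15096 (8.36%) and 2422 (16%). Of the calls by the Ptprc split 32.9% were higher, and 42.1% under TMM scaling (a shift of 0.20) and 46.7% with DESeq2. Of the same lists 18 of 18 and 24 of 28 were lower among Ptprc-negative barcodes, and 14 of 18 and 21 of 28 in the panel split. Col1a1 gave 3178 and 3483 CPM on day 0 and 324 and 215 CPM on day 1 among Ptprc-negative barcodes, a difference of -3.63 (-2.60 in the panel split). Gsn, gelsolin, gave 15380 and 10290 CPM on day 0 and 850.1 and 542 CPM on day 1, a difference of -4.21 (-3.49).

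Some matrix genes went up against this fall. Tnc, tenascin-C, a matrix protein of injured tissue, gave 7.09 and 11.2 CPM on day 0 and 80.9 and 78.1 CPM on day 1 in Ptprc-negative barcodes, a difference of 3.12 ± 0.25 (adjusted p = 0.000236; 4.10 in the panel split). It was high on day 1 in more than one compartment, with 10.9 and 19.8 CPM on day 0 and 346 and 255 CPM on day 1 in fibro-adipogenic barcodes and 0.266 and 0.480 CPM on day 0 and 136 and 89.6 CPM on day 1 in endothelial ones. Timp1, an inhibitor of matrix metalloproteinases, rose in both fractions. It gave 1.00 and 1.61 CPM on day 0 and 122 and 112 CPM on day 1 among immune barcodes and 14.4 and 12.8 CPM on day 0 and 319 and 393 CPM on day 1 among Ptprc-negative ones, differences of 6.51 and 4.71. Fibro-adipogenic barcodes held Timp1 at 25.5 and 18.7 CPM on day 0 and 1238 and 1424 CPM on day 1. In all of these pairs the days did not overlap.

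Endothelial genes also fell in the tissue sum, 19 of 22 lower and 0 higher (median -3.26), against 39.6% of all genes lower. Within the non-immune fraction 12 of 22 were lower, against 25.9% of all genes. In the panel split 6 of 22 were, against 16% of all genes. Pecam1, CD31, gave 126 and 146 CPM on day 0 and 21.4 and 25.3 CPM on day 1 over all barcodes, a fall of -2.54. Among Ptprc-negative barcodes it gave 146 and 164 CPM on day 0 and 100.1 and 124 CPM on day 1, a difference of -0.46 that was not called, and the panel split had it at 0.57. Ackr1, Tek and Lpl were lower on day 1 under either split. Ackr1, the atypical chemokine receptor of venules, gave 31.5 and 30.1 CPM on day 0 and 1.21 and 2.39 CPM on day 1, a difference of -4.03 (-3.94 in the panel split). Tek, the receptor Tie2, gave 108 and 69.2 CPM on day 0 and 14.8 and 14.3 CPM on day 1, a difference of -2.61 (-1.53). Lpl, lipoprotein lipase, gave 731 and 885 CPM on day 0 and 118 and 176 CPM on day 1, a difference of -2.46 (-2.56). Kit, a receptor tyrosine kinase of mast cells and some endothelium, rose in Ptprc-negative barcodes, with 5.23 and 2.84 CPM on day 0 and 16.9 and 17.6 CPM on day 1, by 2.10. Endothelial barcodes with at most 1 pan-leukocyte gene held Kit at 26.8 and 10.4 CPM on day 0. On day 1 they held it at 139.8 and 114 CPM, and fibro-adipogenic ones held 0 UMIs of it. Plaur, the urokinase receptor, gave 9.05 and 8.68 CPM on day 0 and 110.5 and 138 CPM on day 1, a difference of 3.81 (3.59), and endothelial barcodes held it at 12.7 and 27.3 CPM on day 0 and 199 and 237 CPM on day 1.

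Muscle stem cell genes fell in the tissue sum without exception, 20 of 20 lower with a median of -5.26, against 39.6% of all genes lower. Pax7, the transcription factor of satellite cells, gave 46.4 and 53.4 CPM on day 0 and 0.760 and 0.582 CPM on day 1, a difference of -6.22 ± 0.22 (adjusted p = 1.76e-05). It fell within Ptprc-negative barcodes too, with 54.4 and 59.8 CPM on day 0 and 4.60 and 3.25 CPM on day 1, by -3.89 (-3.25 in the panel split). Calcr, the calcitonin receptor that holds satellite cells quiescent, gave 7.08 and 8.401 CPM on day 0 and 0 UMIs on day 1, at least 62.8-fold lower against a floor of 3 UMIs over the group. Myod1, which activated satellite cells turn on, was not called in Ptprc-negative barcodes. It gave 27.0 and 50.5 CPM on day 0 and 39.3 and 55.4 CPM on day 1, a difference of 0.29 that was not called (adjusted p = 0.483), and in the panel split 27.9 and 51.4 CPM on day 0 and 71.0 and 91.5 CPM on day 1, a rise of 1.04 (adjusted p = 0.0381). On day 1 the myogenic panel alone was borne by 15 and 27 barcodes with at most 1 pan-leukocyte gene, too few to describe further. Sarcomere genes were lower for 23 of 28 over all barcodes, and Acta1, skeletal muscle actin, gave 7551 and 9634 CPM on day 0 and 509.6 and 562 CPM on day 1. Among non-immune barcodes 22 of 27 were lower by the Ptprc split but 1 of 27 in the panel split, against 25.9% and 16% of all genes. With each barcode thinned to 500 UMIs 1 was lower. Acta1 fell by -3.93 among immune barcodes as well, with 1791 and 1718 CPM on day 0 and 115 and 115 CPM on day 1 in a fraction of which 97.1% and 97.9% of barcodes bore the mature muscle panel on day 0.

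**Figure D3:**
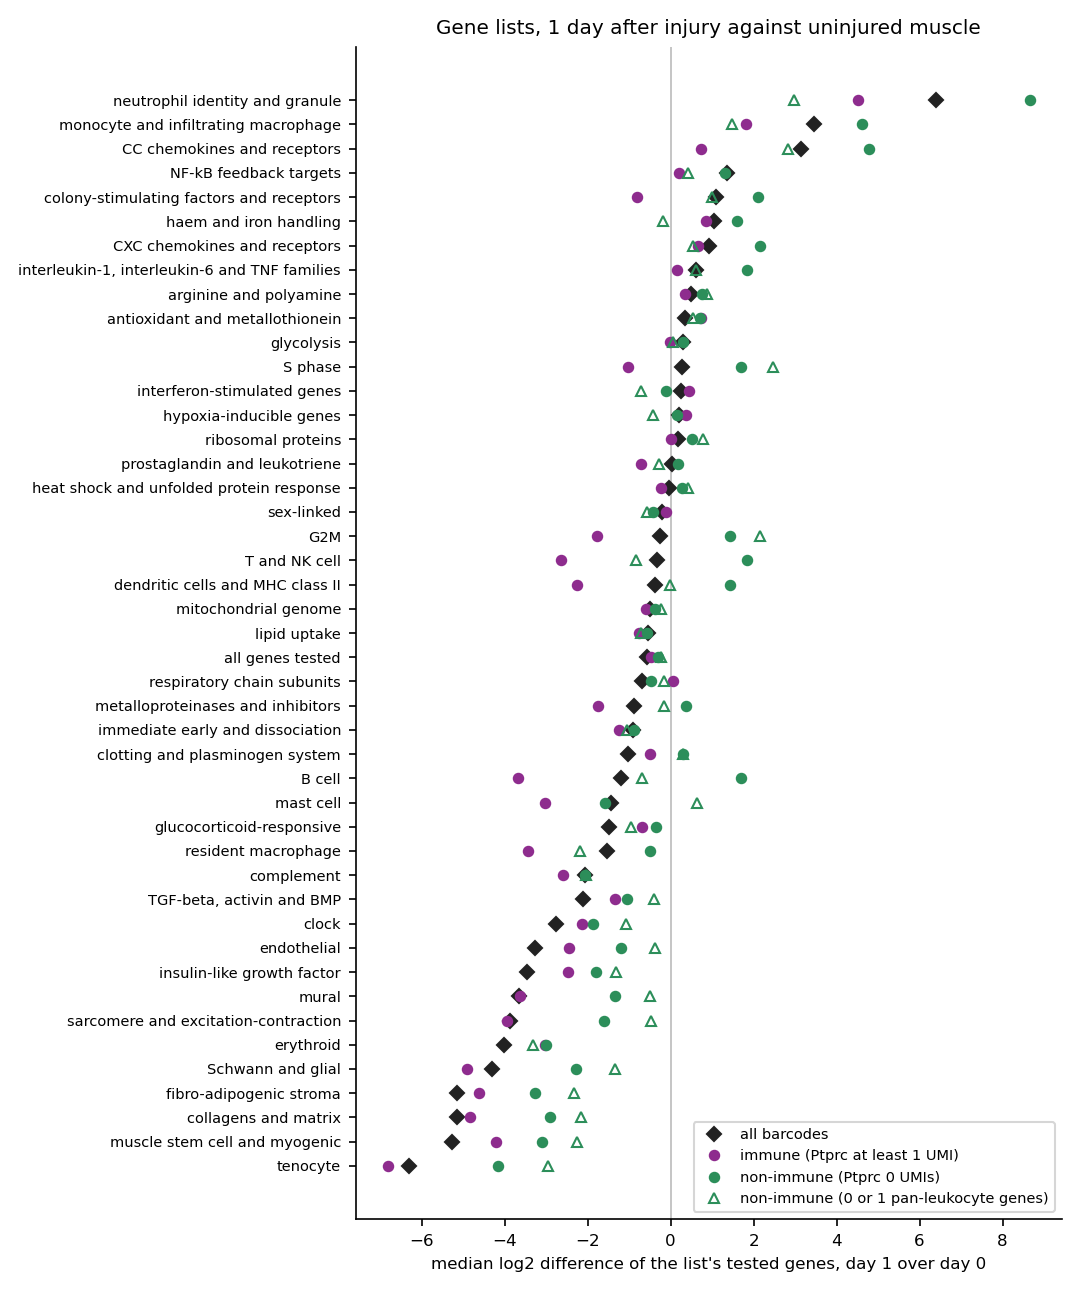
Median log2 difference (day 1 over day 0, x axis) of the tested members of each of 44 gene lists and of all genes tested (y axis). Diamonds stand for all barcodes, filled circles for immune and Ptprc-negative barcodes, and open triangles for the panel split. Over all barcodes neutrophil genes stand at 6.38, collagens and matrix at -5.15 and all genes tested at -0.57.

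S phase genes rose among non-immune barcodes. Of 20 such genes, 15 were higher and 0 lower among Ptprc-negative barcodes (17 and 0 in the panel split), against 12.7% of all genes higher there. Among immune ones 0 were higher and 9 lower, near the 33.5% of all genes called lower in that fraction. With 1 library left out the first count ranged from 9, without day 1 at ZT16, to 18, without day 0 at ZT16, and thinning each barcode to 500 UMIs gave 6. The second was 2 without day 0 at ZT16, 4 without day 1 at ZT4, 12 without day 0 at ZT4 and 3 under TMM scaling. Mcm3, a subunit of the replicative helicase, gave 7.96 and 11.5 CPM on day 0 and 55.3 and 55.8 CPM on day 1 in Ptprc-negative barcodes, a difference of 2.51 ± 0.22 (adjusted p = 0.000316). Pcna, the sliding clamp of DNA polymerase, gave 51.4 and 64.4 CPM on day 0 and 121 and 156 CPM on day 1, a smaller difference of 1.26 (0.75 and not called after thinning). Fibro-adipogenic barcodes held Mcm3 at 5.68 and 10.0 CPM on day 0 and 126 and 113 CPM on day 1 and endothelial ones at 16.4 and 13.1 CPM on day 0 and 34.7 and 33.6 CPM on day 1, in each case with both day 1 libraries higher. Of 20 genes of G2 and mitosis, 0 were called among Ptprc-negative barcodes and 2 in the panel split, although 16 had day 1 above day 0 without overlap and the median was 1.43. That count of 0 became 6 with collection time as a block, 4 with DESeq2 and 3 after thinning. Leaving out day 0 at ZT16, the library with more mitotic RNA in this fraction, raised it to 18, and leaving out day 0 at ZT4 gave 2. Mki67 there gave 1.07 and 10.5 CPM on day 0 and 20.4 and 14.3 CPM on day 1, without overlap but with day 0 at ZT16 much nearer to day 1 than ZT4 was, and it was not called (adjusted p = 0.243). Among immune barcodes 17 of 20 G2 and mitosis genes were lower, and 8 without day 0 at ZT16, 9 without either day 1 library, 9 with DESeq2 and 4 after thinning.

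**Figure D4:**
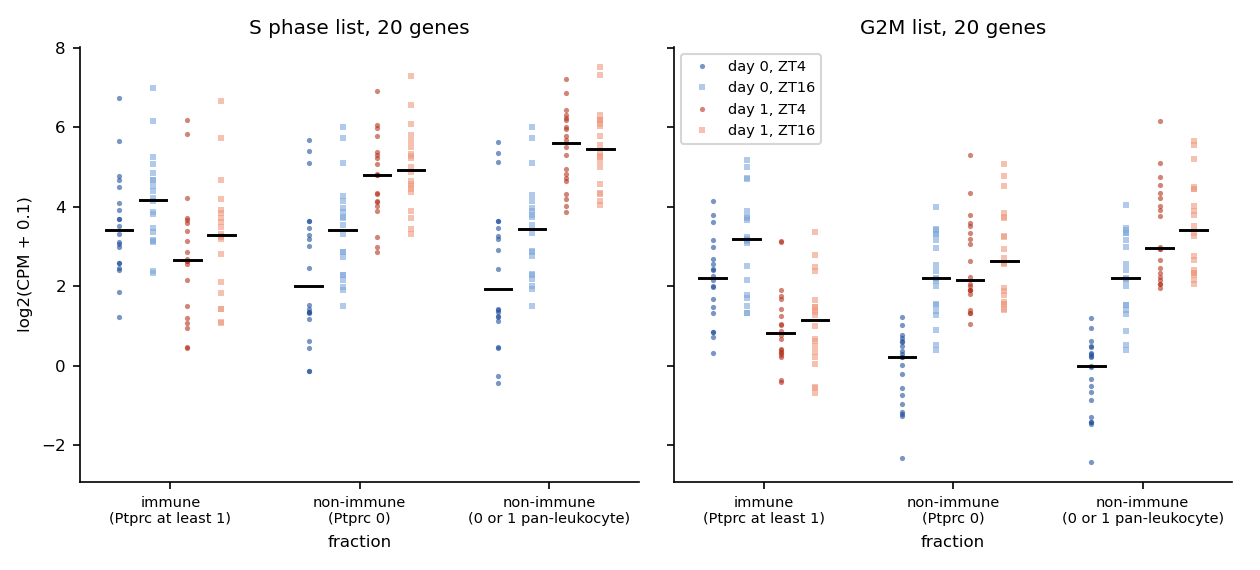
Levels of 20 S phase genes (left) and 20 genes of G2 and mitosis (right) as log2(CPM + 0.1), 1 point per gene and library, for immune barcodes, Ptprc-negative barcodes and the non-immune barcodes of the panel split, blue for day 0, red for day 1, with the median of each library as a black bar. S phase genes are higher on day 1 in both non-immune fractions (15 and 17 of 20 called), and 9 of 20 are called lower among immune barcodes, where 33.5% of all genes are. In Ptprc-negative barcodes the G2 and mitosis genes of day 0 lie higher at ZT16 than at ZT4, with 16 of 20 above both on day 1.

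The difference between the fractions was tested directly in a model with library, fraction and their days. Of 16502 genes, 327 had a signed log2 day difference greater in immune barcodes (1.98%) and 3584 one greater in Ptprc-negative barcodes (21.7%). The counts go by sign and not by size, so a steeper fall among immune barcodes counts as greater in Ptprc-negative ones. Called in each fraction on its own, 661 genes were higher in both and 2911 lower in both, whereas 6 were higher in immune and lower in non-immune barcodes and 185 the other way. Of 745 list members in the model, 36 had opposite calls. Tfrc, the transferrin receptor that takes iron into dividing cells, was one of them. It gave 92.3 and 59.7 CPM on day 0 and 24.7 and 25.7 CPM on day 1 among immune barcodes, a fall of -1.59, and 9.25 and 7.61 CPM on day 0 and 29.8 and 21.2 CPM on day 1 among Ptprc-negative ones, a rise of 1.59 (1.94 in the panel split). Its difference between the fractions was -3.14 on the log2 scale.

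**Figure D5:**
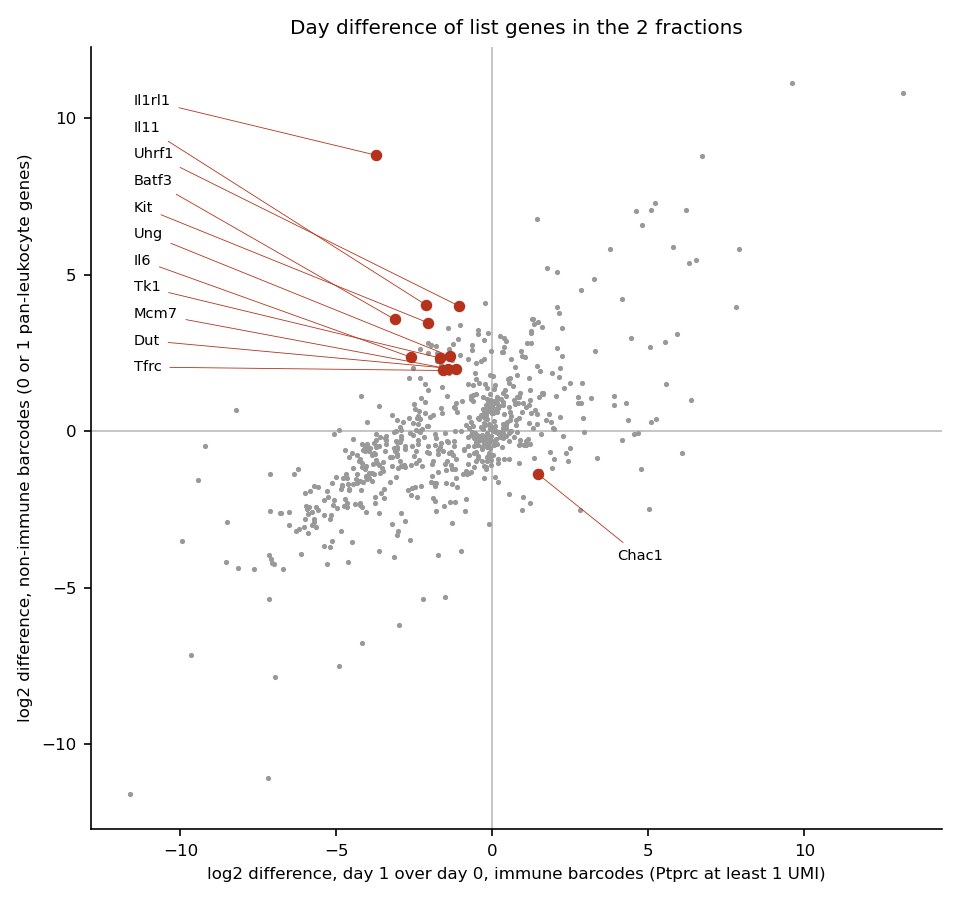
Log2 difference (day 1 over day 0) among immune barcodes (x axis) against that among the non-immune barcodes of the panel split (y axis) for 667 list genes, 1 point each. The 12 genes with opposite calls under both splits are named, 11 at the upper left, where Il1rl1 stands highest at 8.82 among non-immune barcodes, and Chac1 at the lower right.

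Of 15 genes of haem and iron handling, 6 were higher among immune barcodes, where 6.4% of all genes were, and 5 were lower, a share like that of all genes (33.5%). Fth1, the ferritin heavy chain, gave 5239 and 4681 CPM on day 0 and 15550 and 13810 CPM on day 1, a difference of 1.57 ± 0.12 (adjusted p = 2.62e-05), and the light chain Ftl1 gave 5056 and 4697 CPM on day 0 and 12900 and 13430 CPM on day 1. Both days were tight and apart. Trf, transferrin, gave 673 and 642 CPM on day 0 and 83.9 and 73.1 CPM on day 1, a fall of -3.07. Ptprc-negative barcodes showed a rise in Fth1 of 1.65 that was -0.07 in the panel split. Hmox1, haem oxygenase 1, which opens the haem ring, rose among Ptprc-negative barcodes by 3.88 (1.23 in the panel split) and its difference of 0.90 among immune ones was short of 2-fold.

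Genes of glycolysis and of the response to low oxygen rose in part. Among immune barcodes 7 of 24 glycolysis genes were higher and 5 lower, and 6 of 14 hypoxia-inducible genes were higher and 2 lower. Of all genes 6.4% were higher and 33.5% lower there. Slc16a3, the lactate exporter MCT4, gave 25.8 and 25.5 CPM on day 0 and 233 and 156 CPM on day 1, a difference of 2.92, and on day 1 it was at 714 and 736 CPM in neutrophil-bearing barcodes against 99.1 and 52.9 CPM in monocyte-macrophage ones. Slc2a1, the glucose transporter GLUT1, gave 9.70 and 13.3 CPM on day 0 and 56.9 and 37.4 CPM on day 1, a difference of 2.04. Hif1a, the oxygen-regulated transcription factor, gave 72.4 and 72.5 CPM on day 0 and 467 and 249 CPM on day 1, with day 1 at ZT4 the highest. It was also higher on day 1 in endothelial barcodes, at 53.1 and 62.1 CPM on day 0 and 301 and 145 CPM on day 1. Clotting and plasminogen genes went both ways among immune barcodes, with 6 of 18 higher and 7 lower and a median log2 difference of -0.50. Among the higher ones, F10, coagulation factor X, gave 5.31 and 6.66 CPM on day 0 and 153 and 76.9 CPM on day 1. F7, factor VII, gave 0.308 and 1.11 CPM on day 0 and 21.2 and 22.5 CPM on day 1. Their rises were 4.27 and 5.04 among immune barcodes.

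Among Ptprc-negative barcodes, 6 of 12 genes of arginine and polyamine metabolism were higher and 0 lower, as in the panel split. The shares of all genes higher were 12.7% and 8.36% in the same order. Odc1, ornithine decarboxylase, gave 62.3 and 66.8 CPM on day 0 and 284 and 256 CPM on day 1, a difference of 2.07 ± 0.16 (adjusted p = 0.000214; 2.42 in the panel split). Srm, spermidine synthase, gave 40.0 and 36.0 CPM on day 0 and 114 and 138 CPM on day 1, a difference of 1.73. Fibro-adipogenic and endothelial barcodes both carried more Odc1 on day 1, at 46.9 and 41.8 CPM on day 0 and 208 and 192 CPM on day 1 and at 69.6 and 34.4 CPM on day 0 and 229 and 197 CPM on day 1. The mitochondrial chaperone Hspd1 moved alike, with 105 and 132 CPM on day 0 and 391 and 405 CPM on day 1 and a difference of 1.75 (0.915 and not called after thinning to 500 UMIs).

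Immediate early genes, which tissue dissociation itself can switch on, were lower on day 1. Of 21 such genes, 9 were lower and 3 higher among Ptprc-negative barcodes (11 and 0 in the panel split). Among immune ones 12 were lower and 1 higher, 7 and 1 under TMM scaling. Of all genes, 25.9% were lower and 12.7% higher among Ptprc-negative barcodes, and 33.5% and 6.4% among immune ones. Jun gave 2523 and 2648 CPM on day 0 and 319 and 286 CPM on day 1 among immune barcodes, a difference of -3.09, and 3365 and 3191 CPM on day 0 and 897 and 732 CPM on day 1 among Ptprc-negative ones, a difference of -2.01. Heat shock and unfolded protein genes, another list of 21, were higher for 1 and lower for 6 among immune barcodes (median -0.23). Among Ptprc-negative ones 4 were higher and 5 lower (median 0.28). Hspa1a, the inducible HSP70 that handling stress also raises, is on that list. It gave 1078 and 1331 CPM on day 0 and 29.0 and 45.4 CPM on day 1 among immune barcodes. Among Ptprc-negative ones Hspa1a gave 699 and 712 CPM on day 0 and 143 and 138 CPM on day 1. All libraries of day 0 lay above those of day 1 for Jun and Hspa1a. The share of deposited barcodes over the mitochondrial limit was higher on day 0 as well, as given above, and its part in these values was not tested.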

How the data were processed

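Single-cell RNA was measured with droplet capture (10x Genomics) in 1 library per day and collection time. The authors deposited raw UMI counts per gene and barcode, which the file headers tie to Cell Ranger 6.1.2, while Cell Ranger 1.0.0 and mm10 are given in the submitters' processing notes. Nothing upstream was repeated.

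Counts of kept barcodes were summed per library and tested with edgeR 4.0.16 (R 4.3.3) by the quasi-likelihood test, 2 libraries a day, scaled by library totals, with low-count filtering and Benjamini-Hochberg adjustment over all tested genes. Calls needed an adjusted p under 0.05 and 2-fold. Errors are standard errors. The interaction model took library, fraction and day in the immune fraction. Simulated counts with few known changes, as many rises as falls, were used to check the code of the fit. They cannot check the scaling by library totals, since most called genes in the data were lower. A gene at 0 on a day is given against a floor of 3 UMIs. Doublets were kept in the main values. The automatic scrublet threshold marked 412, 702, 0 and 360 barcodes, so the alternative without doublets left out the highest scores instead (1106, 1229, 965 and 1009 barcodes). Other alternatives were TMM scaling, DESeq2 1.42.0, no low-count filter, a stricter mitochondrial limit, thinned barcodes, the panel split, a block for collection time and each library left out. List counts without a share of all genes beside them are to be read against the following. Genes were higher and lower at 11.9% and 39.6% over all barcodes, 6.4% and 33.5% among immune ones and 12.7% and 25.9% among Ptprc-negative ones. The median log2 differences of all genes were -0.57, -0.48 and -0.30 in the same order. In the panel split the non-immune shares were 8.36% and 16%. No set test was made. Intervals are Clopper-Pearson.

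The members, the 44 lists and the 11 panels were chosen with earlier results of these data known. Named genes were, per comparison, the 10 largest rises and falls of at least 100 CPM without overlap, and per list the 3 members with the most UMIs and the 2 largest called changes of at least 20 CPM, plus a fixed set of signal and marker genes. Others, the classes bearing 1 panel alone, and the counts of lists under the alternatives were chosen after the values were seen. Of the list genes, 6 were not found under their symbol and were not analysed here. Promoters are from RefSeq, 3 of 4 genes matched.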

Additional observations from a re-analysis of the deposited data

Results flagged for a closer look

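For 12 list genes the day difference was called in opposite directions in the 2 fractions, under the Ptprc split and under the panel split alike, and the difference between the fractions was itself called in edgeR's interaction model. They were picked out by these calls after the values were seen. The difference is the day difference among immune barcodes minus that among Ptprc-negative ones, on the log2 scale. It was -8.04 for Il1rl1, -5.40 for Il11, -4.20 for Il6 and -4.20 for Kit, all cytokines or receptors of secreted factors. Among genes of DNA replication, its precursors and DNA upkeep it was -4.52 for Uhrf1, -3.36 for Tk1, -3.08 for Ung, -2.63 for Mcm7 and -2.41 for Dut. Batf3, a transcription factor of dendritic cells, stood at -4.83 and Tfrc at -3.14. Chac1, which degrades glutathione, was the gene that went the other way, at 2.79.

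Calls within a single fraction were lost under some settings for all of these genes except Kit and Tfrc. Among immune barcodes, leaving out day 0 at ZT16 gave uncalled differences of 1.14 for Chac1, -1.10 for Dut, -2.29 for Il11, -1.004 for Mcm7, -0.76 for Uhrf1 and -1.09 for Ung. Leaving out day 1 at ZT4 gave -0.84 for Dut, -1.71 for Il11 and -0.80 for Uhrf1, and leaving out day 0 at ZT4 gave -1.94 for Il11. The immune falls of Dut, Mcm7, Uhrf1 and Ung were not called under TMM scaling or with DESeq2. Among Ptprc-negative barcodes, leaving out day 1 at ZT4 gave uncalled differences of 1.44 for Batf3, -1.35 for Chac1, 1.60 for Tk1 and 3.29 for Uhrf1. Leaving out day 1 at ZT16 gave 1.92 for Batf3, -1.31 for Chac1, 0.89 for Dut, 1.17 for Il6, 1.09 for Mcm7, 1.59 for Tk1, 3.104 for Uhrf1 and 1.38 for Ung, and leaving out day 0 at ZT4 gave 0.91 for Mcm7. With each barcode thinned to 500 UMIs, the Ptprc-negative rises of Il1rl1, Il6, Mcm7, Tk1 and Ung were not called and the signs of Chac1 and Dut turned. The immune fraction held few neutrophil-bearing barcodes on day 0 and many on day 1, as given in the report, and the part of this in these values was not tested.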

How the results depend on the processing

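Of 1809 values of single genes under 14 other settings, 1726 kept their direction and side of the threshold, 54 lost the call, 19 gained one and 10 turned. Genes higher over all barcodes numbered 3283 under TMM scaling, 3535 with DESeq2 and 3256 with no fold limit, and among immune barcodes 1949, 2037 and 2094. Without a fold limit 3072 were higher among Ptprc-negative barcodes. Thinning to 500 UMIs left 2415 lower among immune barcodes and 1288 higher and 2524 lower among Ptprc-negative ones. The signed day difference was then greater in the latter for 1750 genes. The panel split gave 1262 higher and 2422 lower non-immune genes and 738 with a greater signed difference in immune barcodes. With 1 library left out the counts ran from 1717 to 2120 higher and 6327 to 6554 lower over all barcodes, 768 to 953 and 4126 to 4553 among immune ones, and 1612 to 2072 and 3394 to 3896 among Ptprc-negative ones. Ptprc shares (day 0, then day 1) were 11.3%, 7.14%, 82.3% and 77.4% of all deposited barcodes, 4.78%, 2.75%, 48.5% and 38.7% after thinning to 1000 UMIs, and 11.3%, 7.41% and 77.9% (day 1 at ZT16) with putative doublets left out. Turned differences after thinning were those of Ccr2 (immune, -0.072), Chac1 (0.44), Cxcl1 (-0.24), Dut (-0.16) and Myod1 (-0.50) among Ptprc-negative barcodes. The panel split turned Cxcl12 (0.41), Fth1 (-0.074) and Pecam1 (0.57), DESeq2 turned Cxcl1 over all barcodes (0.017), and leaving out day 0 at ZT4 turned Myod1 (-0.09, and up to 0.81 with another library left out). The cause was not tested. Depth limits genes at 0 UMIs to bounds.

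With collection time as a replicate block the counts were 2052 higher and 6781 lower over all barcodes, 971 and 5072 among immune and 2025 and 4157 among Ptprc-negative ones. The deviations of the ZT4 libraries of the 2 days correlated at 0.207 across genes, which are not replicates. With 2 pairs, and no label that ties them to a shared animal or batch, they were not treated as paired. The block removed the calls of Csf2 (-6.17) and Il1rn (4.77) among immune barcodes and of Uhrf1 (3.48) among Ptprc-negative ones.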

Other observations

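Erythroid genes, which red cells and their precursors express, were lower for all 7 tested over all barcodes, against 39.6% of all genes. Hbb-bs, an adult beta-globin, gave 1230 and 825 CPM on day 0 and 49.6 and 77.7 CPM on day 1, a fall of -4.01, though with putative doublets left out the fall of -3.84 was not called. Insulin-like growth factor genes fell as well, 7 of 10 lower and 0 higher, against 39.6% and 11.9% of all genes. Igf1, which macrophages and stroma make during repair, gave 320.5 and 278 CPM on day 0 and 12.3 and 14.9 CPM on day 1, and Igfbp5, a binding protein of this family, gave 661 and 663 CPM on day 0 and 11.4 and 10.1 CPM on day 1. Of 22 interferon-stimulated genes 9 were higher and 2 lower among immune barcodes, against 6.4% and 33.5% of all genes. Under TMM scaling the counts were 10 and 0. Leaving out day 1 at ZT4 gave 6 and 3, and day 1 at ZT16 gave 10 and 0. Isg15, a ubiquitin-like protein, gave 54.1 and 48.3 CPM on day 0 and 215 and 155 CPM on day 1 there, and Slfn4, a schlafen of myeloid cells, gave 1.92 and 0.908 CPM on day 0 and 98.7 and 62.0 CPM on day 1. On day 1 Slfn4 was at 396 and 346 CPM in neutrophil-bearing immune barcodes and 19.7 and 10.8 CPM in monocyte-macrophage ones.

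Of 19 clock genes 11 were lower and 1 higher over all barcodes, against 39.6% and 11.9% of all genes. Nr1d1, the repressor REV-ERB alpha, gave 93.9 and 38.0 CPM on day 0 and 5.12 and 4.02 CPM on day 1, and Dbp, an output factor of the clock, gave 61.3 and 161 CPM on day 0 and 6.42 and 10.8 CPM on day 1. Both differed between ZT4 and ZT16 on day 0 as well as between the days, with every day 1 value below every day 0 value. Nfil3, which opposes Dbp at its targets, was the 1 that rose, with 23.3 and 25.7 CPM on day 0 and 142 and 118 CPM on day 1. Ribosomal protein genes gave no call among the 28 tested over all barcodes in edgeR's test, 1 higher under TMM scaling and 3 higher with DESeq2.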
